A study of Homo sapiens with 6 samples.

Results

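The HOX genes of clusters A to D were followed in HEK293 Flp-In cells with and without constitutive TRIM71. They were taken as every probeset annotated to a gene named HOXA, HOXB, HOXC or HOXD and a number, which gave 28 of 32321 probesets and 29 gene symbols. A probeset is the group of array probes that reports 1 value per transcript. The HOXB cluster had 10 probesets, HOXD 9 and HOXC 8, of which 1 reports HOXC6 and HOXC4 together. HOXA2 was the only HOXA member, and the other genes of that cluster were not analysed here.

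RNA from 2 groups of 3 samples was hybridised to Affymetrix arrays. One group was the parental HEK293 Flp-In line, labelled wild-type, which derives from human embryonic kidney and carries a single recombination site for transgenes. The other was a line of the same background with constitutive overexpression of FLAG-HA-tagged TRIM71 (FHA-TRIM71), a TRIM-NHL protein that binds mRNA and is known from stem cells. Both grew in DMEM with serum and glutamine, and hygromycin B is named for the TRIM71 line alone, so the drug, the transgene and other differences between the lines cannot be told apart. Neither the transgene's promoter nor whether the line is 1 clone was given in the sources used here. The labels say that the experiment was done in triplicate and not whether the samples came from separate cultures, so each p-value is set by the spread among these arrays, and that spread may be technical.

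HOX genes encode homeodomain transcription factors that give cells their position along the body axis. Within each cluster the genes are numbered from the 3′ end, which is active early and towards the head, to the 5′ end, which is active later and towards the tail and the ends of the limbs. Genes with the same number in different clusters are paralogs, copies that arose when the clusters were duplicated. HOX proteins bind DNA together with PBX and MEIS cofactors, Polycomb proteins keep silent HOX genes off, and retinoic acid turns the 3′ genes on in the embryo.

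Of the 28 HOX probesets, 2 rose, 1 fell and 25 did not pass the test. HOXA2, which patterns the hindbrain and the second pharyngeal arch, rose 2.00-fold. HOXC13, which acts in hair and nail, rose by less, and HOXD13, which shapes the digits and the urogenital tract, fell. The call was made in a limma fit over all 32321 probesets, where a Benjamini-Hochberg adjusted p below 0.05 passed. In that fit 16.2% of all probesets were called, 7.95% higher and 8.28% lower, against 10.7% of the HOX probesets. Counted by gene, 3 of 27 HOX genes were called (11.1%) against 22.2% of 18404 genes. The share of HOX members that changed was thus no larger than that of the arrays as a whole.

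The sequences around the start sites of HOXA2 and HOXD13 are shown because these members gave the largest rise and the largest fall. Each runs from 250 bases before the start of the gene to 50 after it, in RefSeq on GRCh38.p14, with the motifs found in capitals. HOXA2 lies at chr7:27102634-27102933 on the minus strand and HOXD13 at chr2:176092471-176092770 on the plus strand.
HOXA2: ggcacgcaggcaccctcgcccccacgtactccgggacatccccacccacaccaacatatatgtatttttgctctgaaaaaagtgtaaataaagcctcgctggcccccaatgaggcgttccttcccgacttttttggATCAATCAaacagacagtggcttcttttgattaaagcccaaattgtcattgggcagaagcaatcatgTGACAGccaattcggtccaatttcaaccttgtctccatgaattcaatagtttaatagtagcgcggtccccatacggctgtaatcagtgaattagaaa
HOXD13: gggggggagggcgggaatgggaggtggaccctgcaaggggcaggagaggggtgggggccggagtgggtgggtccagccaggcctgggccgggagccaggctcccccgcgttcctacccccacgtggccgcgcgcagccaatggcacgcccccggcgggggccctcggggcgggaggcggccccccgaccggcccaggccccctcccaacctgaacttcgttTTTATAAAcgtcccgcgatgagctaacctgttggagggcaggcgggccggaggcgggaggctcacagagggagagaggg

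Each window was searched on both strands for TGATNNAT, the joint HOX and PBX motif, for TGACAG, the MEIS motif, and for TATAAA, the TATA box. The HOXA2 window held the first motif, written ATCAATCA on the strand shown, from position −114, and the second from −47. The HOXD13 window held neither, and had the TATA letters on both strands in overlap, from −29 and −27. Of 35097 promoter windows of the same length, 7.40% held the HOX and PBX motif, 15.8% the MEIS motif and 11.5% the TATA letters. Promoter sequences were at hand for 12 of the 29 HOX symbols, and of these HOXB1 and HOXD11 also held the HOX and PBX motif and HOXD4 the MEIS motif. HOXD13 had 74.0% G and C in its window and HOXA2 46.3%, with a median of 58.7% over all windows. These matches describe letters and do not show that a factor binds.

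TRIM71 mRNA stood at 7.40 ± 0.16 in the parental line and 10.74 ± 0.11 in the TRIM71 line (log2 expression, mean ± SD, n = 3 each, as everywhere below), and its groups did not overlap (two-sided exact permutation p = 0.1, the smallest that 3 against 3 arrays allow). Of 10 embryonic kidney markers, all 10 lay above the level that 95% of olfactory receptor probesets stay under, 5.81, among them SIX2 (8.34 in the parental line), EYA1 (9.21) and SALL1 (8.98). Olfactory receptor genes are silent in most tissues, so their 350 probesets show what dim probesets look like here, but passing that level is no detection call. Of 7 blood and endothelial markers only SPI1 passed it (6.75), and PTPRC (3.53) and PECAM1 (4.40) lay far below, while 4 of 8 fibroblast markers passed it. PDGFRA was the only fibroblast marker called, higher in the TRIM71 line (6.61 ± 0.02 to 6.95 ± 0.03), and the summed level of that list ran from 45.8 to 46.8 in either group. Of 4 measured pluripotent cell markers 2 passed the level, and SOX2 fell (8.80 ± 0.02 to 8.34 ± 0.08). Summed over the 10 kidney markers, the level was 76.5 to 77.2 on parental and 78.1 to 78.5 on TRIM71 arrays, with SALL1 and LHX1 higher. Summed over 8 neuronal and filament markers of HEK293 cells it was 77.2 to 77.7 and 74.9 to 75.4, with NEFL, INA and KRT8 lower and VIM higher. The part of these shifts in the HOX results was not tested. SIX2, EYA1, SPI1, PTPRC and PECAM1 are named after their values were seen.

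In both lines, 27 of 28 HOX probesets lay above the olfactory receptor level, and 23 above the median of all probesets, 6.94. Of all 32321 probesets, 21476 passed the olfactory receptor level in at least 1 line. The highest signals in the parental line were those of HOXD10 (11.41 ± 0.08) and HOXB9 (10.88 ± 0.04), which stood at the 95.8th and 93.3rd percentile of all probesets. HOXB2 (9.78), HOXD11 (9.36), HOXC9 (9.35) and HOXD13 (9.27) followed. HOXD12 (4.91 ± 0.01) lay below the olfactory receptor level, and HOXC11 (6.19), HOXC12 (6.22), HOXB1 (6.37) and HOXD3 (6.62) lay within 1 log2 unit above it. Probes differ in how strongly they bind, so these signals rank probesets and not amounts of mRNA. The median over the HOX probesets was 7.97 to 8.09 on the parental arrays and 7.95 to 8.06 on the TRIM71 arrays, and the ranges overlapped.

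**Figure D1:**
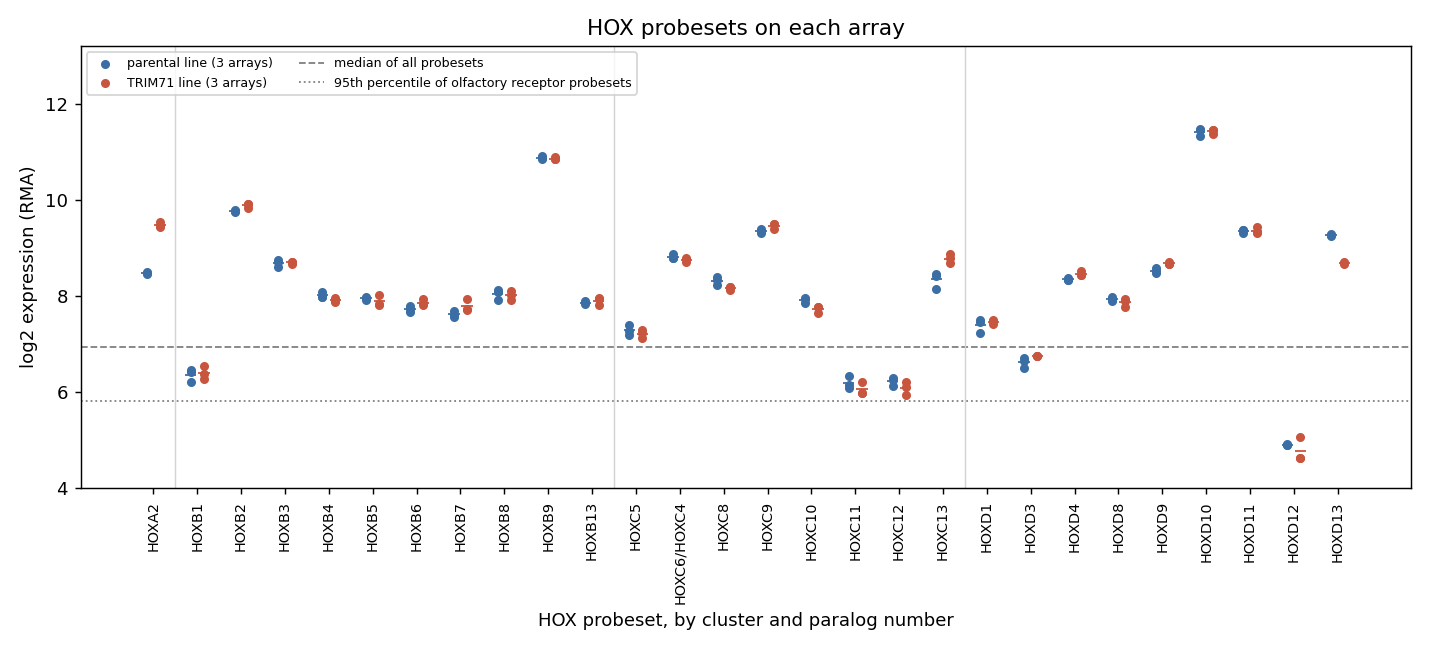
Log2 expression (y axis) of each of the 28 HOX probesets (x axis, by cluster and number) on the 3 parental and 3 TRIM71 arrays. Points are arrays, short lines group means, the dashed line the median of all probesets (6.94) and the dotted line the 95th percentile of olfactory receptor probesets (5.81). The groups do not overlap for 13 probesets, the called HOXA2, HOXC13 and HOXD13 and 10 that did not pass, and HOXD12 is the only member under the dotted line.

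HOXA2 read 8.46, 8.48 and 8.49 on the parental arrays and 9.45, 9.55 and 9.44 on the TRIM71 arrays. The groups lay almost 1 log2 unit apart, with little spread inside either. The change was 1.0 on the log2 scale (SE 0.05, 95% interval 0.88 to 1.12, adjusted p = 2.1e-04), and HOXA2 was the only HOX member to change by at least 1.5-fold, as 3.83% of all probesets did. HOXB2, its paralog in the hindbrain and the only other measured gene with number 2, read 9.80, 9.75 and 9.78 against 9.83, 9.92 and 9.91. Its groups did not overlap either, but the change of 0.11 did not pass (95% interval −0.01 to 0.23, adjusted p = 0.19). HOXA2 minus HOXB2 within each array was −1.30 ± 0.03 in the parental line and −0.41 ± 0.06 in the TRIM71 line. That gap differed by 0.89 between the lines, which shows unequal change of the paralogs, and since both were picked with their values known it was given no test.

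HOXD13 read 9.29, 9.27 and 9.25 on the parental arrays and 8.69, 8.66 and 8.72 on the TRIM71 arrays. All 3 TRIM71 arrays lay below all parental arrays, with little spread inside either group (SD 0.02 and 0.03). The log2 change was −0.58 (SE 0.04, 95% interval −0.69 to −0.47, adjusted p = 8.1e-04), or 1.49-fold lower, just short of 1.5-fold. HOXD11, which acts with its paralogs in kidney and forearm, lies on the other side of HOXD12 and was bright on every array. It read 9.38, 9.38 and 9.32 against 9.31, 9.32 and 9.43, overlapped fully and differed by −0.0047 (95% interval −0.13 to 0.12, adjusted p = 0.97). The gap between HOXD13 and HOXD11 within an array went from −0.09 ± 0.02 to −0.66 ± 0.05, a description chosen after the values were seen.

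HOXC13 read 8.46, 8.16 and 8.43 on the parental arrays and 8.68, 8.86 and 8.79 on the TRIM71 arrays. The groups did not overlap, but parental replicate 2 stood below the other parental arrays. The log2 change was 0.43 (SE 0.10, 95% interval 0.20 to 0.66, adjusted p = 0.028). The call ended when parental replicate 2 was left out (0.33, adjusted p = 0.053), and also without parental replicate 3 (0.47, 0.056), TRIM71 replicate 1 (0.48, 0.056), TRIM71 replicate 2 (0.39, 0.093) or TRIM71 replicate 3 (0.42, 0.072). It held only without parental replicate 1, while the calls of HOXA2 and HOXD13 held whichever array was left out.

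The paralogs with number 13 differed in direction. HOXB13, known from prostate and tail bud, read 7.90, 7.87 and 7.83 against 7.81, 7.96 and 7.93 and differed by 0.04 (95% interval −0.10 to 0.17, adjusted p = 0.74). The gap between HOXC13 and HOXD13 within an array went from −0.92 ± 0.17 in the parental line to 0.09 ± 0.11 in the TRIM71 line. That pair was chosen after its values were seen, and the gap restates the rise of HOXC13 and the fall of HOXD13. No other number held a called gene apart from HOXA2 in number 2.

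Among the 12 posterior probesets, numbers 9 to 13, 1 rose, 1 fell and 10 did not pass. HOXD9 and HOXC10 came nearest to the threshold. HOXD9 read 8.52, 8.48 and 8.58 against 8.67, 8.67 and 8.70, and the groups did not overlap (0.16, 95% interval 0.04 to 0.27, adjusted p = 0.077). HOXC10, which acts in lumbar motor neurons, read 7.95, 7.85 and 7.94 against 7.65, 7.77 and 7.77, again without overlap (−0.18, 95% interval −0.32 to −0.05, adjusted p = 0.081). Both passed where fewer dim probesets were tested, at adjusted p = 0.040 for HOXD9 and 0.046 for HOXC10 with only probesets above the olfactory receptor level. HOXC9 differed by 0.11, HOXD10 by 0.02 and HOXB9 by −0.02, with 95% intervals between −0.13 and 0.24. HOXC11 (−0.13), HOXC12 (−0.14) and HOXD12 (−0.13) were dim. HOXD12 read 4.91, 4.92 and 4.90 against 4.64, 4.62 and 5.07, and without TRIM71 replicate 3 its value was −0.28 (adjusted p = 0.028).

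None of the 10 central probesets, numbers 4 to 8, passed with limma at the adjusted threshold. HOXC8 and HOXD4 came nearest to it. HOXC8, known for its role in brachial motor neurons, differed by −0.15 (adjusted p = 0.14) and HOXD4 by 0.12 (adjusted p = 0.15). HOXC8 read 8.23, 8.39 and 8.33 against 8.13, 8.19 and 8.19, and HOXD4 read 8.37, 8.34 and 8.33 against 8.52, 8.43 and 8.45, with no overlap in either. HOXB7 (0.18), HOXB6 (0.14) and HOXB4 (−0.10), the last a factor of blood stem cells, had groups that did not overlap. HOXB5 (−0.07), HOXB8 (−0.03), HOXC5 (−0.08), HOXD8 (−0.07) and the probeset shared by HOXC6 and HOXC4 (−0.07) overlapped. In RefSeq the loci of HOXC4, HOXC5 and HOXC6 overlap each other, as do those of HOXB3 and HOXB4 and those of HOXD3 and HOXD4, so signal may be shared within these sets.

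Of the 6 anterior probesets, numbers 1 to 3, HOXA2 rose and 5 did not pass. The fitted change was above 0 for all 6, at 0.04 for HOXB1, 0.11 for HOXB2, 0.01 for HOXB3, 0.07 for HOXD1 and 0.13 for HOXD3. The sign turned for HOXB1 and HOXB3 with array weights, for HOXB1, HOXB3 and HOXD1 without parental replicate 1, and for HOXB1 without TRIM71 replicate 3. Over all 28 members 14 changes were above 0 and 14 below.

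For 13 of the 28 HOX probesets the groups did not overlap, 9 with TRIM71 higher and 4 with TRIM71 lower. This is 46.4%, against 35.2% of all probesets and 46.2% of those above the olfactory receptor level. The median size of the log2 change was 0.11 for HOX probesets and for all probesets, and 0.13 for those above the olfactory receptor level. Of the probesets above that level 22.8% were called, against 10.7% of the HOX probesets. For the 25 members that did not pass, the 95% intervals, which are not adjusted for the number of tests, all lay between −0.43 and 0.36.

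**Figure D2:**
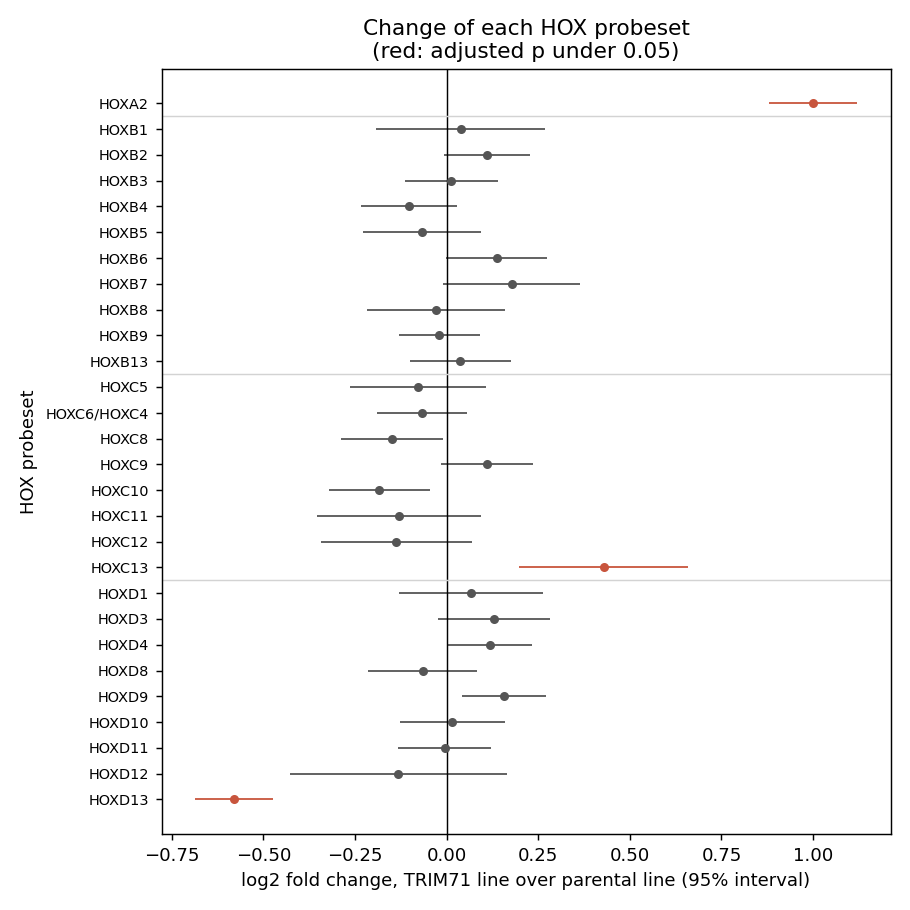
Log2 fold change of the TRIM71 line over the parental line (x axis) for each HOX probeset (y axis), with 95% intervals from the limma fit. Red points passed the test. HOXA2 lies at 1.0, HOXC13 at 0.43 and HOXD13 at −0.58, and the other 25 lie between −0.18 and 0.18.

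Median log2 changes by cluster were 0.03 for the 10 HOXB probesets, −0.10 for the 8 of HOXC and 0.02 for the 9 of HOXD. Of the HOXB probesets 0 were called, against 16.2% of all probesets. The HOXD cluster lies on chromosome 2, where 28.0% of 1154 genes rose and 6.41% fell, against 10.0% and 12.2% of all genes. On chromosome 7, which carries HOXA2, 14.6% rose and 7.92% fell. The shares were 6.75% and 13.7% on chromosome 17, with HOXB, and 8.66% and 15.1% on chromosome 12, with HOXC. Of the 20 measured genes nearest to the HOXD cluster, 10 on each side, 5 rose and 1 fell, with a median change of 0.13. ATF2, a stress-responsive transcription factor, read 10.72, 10.71 and 10.71 against 11.31, 11.33 and 11.31 (0.60, adjusted p = 5.8e-04). AGPS, an enzyme of ether lipid synthesis, rose by 0.44 (adjusted p = 0.0041). EVX2, the homeobox gene beside HOXD13, differed by −0.11 (adjusted p = 0.59), LNPK by 0.00 and MTX2, beside HOXD1, by 0.22 (adjusted p = 0.13). In this fit 0 of 9 HOXD members rose and HOXD13 fell.

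Of 29 measured genes on the list of cluster neighbours, 4 rose and 4 fell, which is 27.6% against 22.2% of all genes and so near the background. The 21 that did not pass differed by −0.13 (COPZ1) to 0.23 (NFE2L2). HOXA2 had called neighbours in both directions. SKAP2, a signalling adaptor and its nearest measured neighbour on 1 side, fell from 10.44 ± 0.06 to 10.10 ± 0.03 (−0.34, adjusted p = 0.0078). On the other side HOXA-AS2, an antisense RNA of the cluster, read 6.10, 5.94 and 5.81 against 5.98, 5.97 and 5.80 and differed by −0.03 (adjusted p = 0.86). The homeobox gene EVX1 differed by −0.10 (adjusted p = 0.45), and TAX1BP1, an autophagy receptor, rose by 0.29 (adjusted p = 0.024). Around HOXB, SNX11 rose by 0.22 (adjusted p = 0.035), while SKAP1 (−0.41, adjusted p = 0.0028, at a dim 5.27 in the parental line) and CALCOCO2 (−0.28, adjusted p = 0.036) fell. Around HOXC, CBX5, the heterochromatin protein HP1 alpha, fell by 0.26 on the log2 scale (adjusted p = 0.023), and SMUG1, a DNA repair glycosylase, differed by −0.06. Of the 20 measured genes nearest to each cluster, on the list or not, 2 rose and 2 fell around HOXA. There HOXA2 alone stood for the cluster, so HOXA-AS2 was counted among the 20. Around HOXB 3 rose and 3 fell, and around HOXC 2 rose, neither of them on the list, and 1 fell. These are 20%, 30% and 15% called, against 22.2% of all genes. The calls of SNX11, CALCOCO2 and TAX1BP1 ended with median centring of the arrays (adjusted p = 0.082, 0.053 and 0.058). Leaving out 1 array ended the SNX11 call in 6 of 6 cases, that of CALCOCO2 in 5, and those of CBX5 and TAX1BP1 in 4 each.

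**Figure D3:**
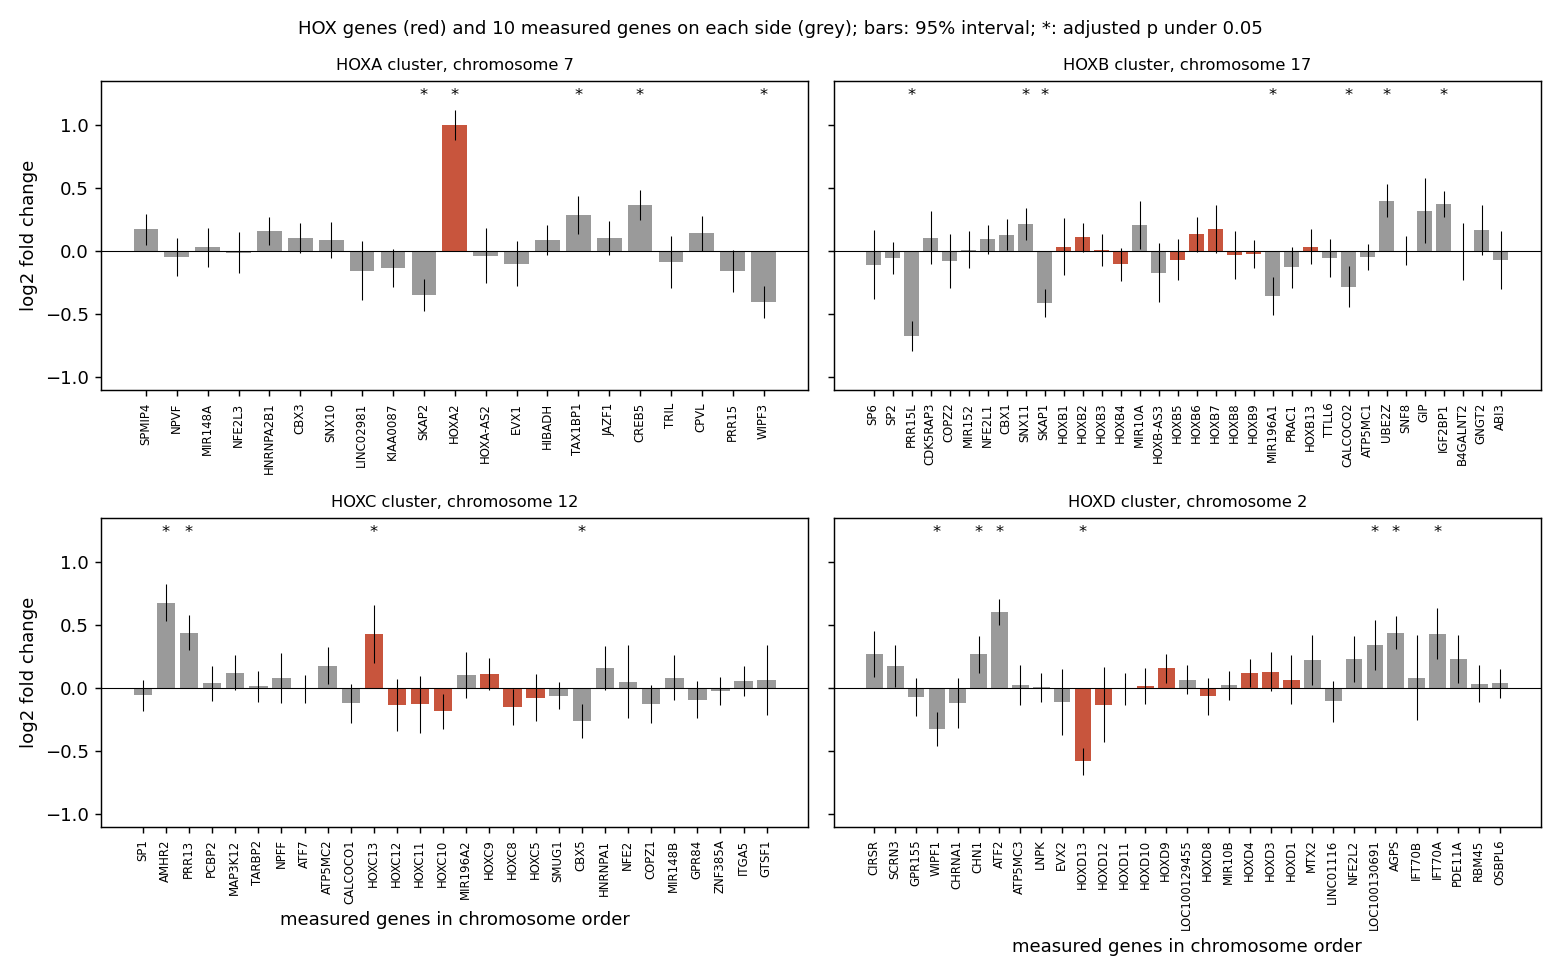
Log2 fold change (y axis, with 95% intervals) of HOX genes in red and of other measured genes in and around each cluster in grey, 10 beyond each end, in chromosome order (x axis). HOXA2 alone stands for its cluster, so HOXA-AS2 counts as beyond its end. Stars mark genes that passed the test. Of the 20 outer genes, 5 rose and 1 fell around HOXD, and HOXA2 at 1.0 is the tallest bar of its panel.

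The HOX clusters also carry microRNA genes of the miR-10 and miR-196 families, and miR-196 is known to pair with HOX mRNAs, HOXB8 among them. The mature forms of MIR196A1 are shown because this gene, between HOXB9 and HOXB13, was the only one of 6 measured cluster RNAs called. That share, 16.7%, is no larger than the 22.2% of all genes. The 5p form of MIR10A, which was not called, is shown for the other family. All are from RefSeq on GRCh38.p14, with the seed, bases 2 to 8, in capitals.
hsa-miR-196a-5p: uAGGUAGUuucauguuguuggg
hsa-miR-196a-1-3p: cAACAACAuuaaaccacccga
hsa-miR-10a-5p: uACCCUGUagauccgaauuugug

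The 5p form of miR-196a is the same from MIR196A1 on chromosome 17 and MIR196A2 on chromosome 12, so its source cannot be read from the mature sequence. The MIR196A1 probeset read 7.17, 7.33 and 7.34 on the parental arrays and 6.95, 6.95 and 6.87 on the TRIM71 arrays. The groups did not overlap, and the log2 change was −0.36 (SE 0.06, adjusted p = 0.013), with the call lost without parental replicate 2 (−0.33, adjusted p = 0.054). MIR196A2, within HOXC, was dim (5.01 ± 0.14 to 5.11 ± 0.01) and did not pass (0.10, adjusted p = 0.45). MIR10A (4.58 to 4.79, adjusted p = 0.13) and MIR10B (3.20 to 3.22, adjusted p = 0.82) lay below the olfactory receptor level. The antisense RNA HOXB-AS3 differed by −0.17 (adjusted p = 0.32). HOXB8 read 7.92, 8.13 and 8.08 against 7.92, 8.11 and 8.02 (−0.03, adjusted p = 0.86). The arrays were labelled from total RNA by whole-transcript amplification, and a probeset at a microRNA gene does not tell the precursor from the mature form.

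Genes that work with HOX proteins or act on HOX clusters were taken from lists. Of 8 HOX cofactors measured, 2 rose, 1 fell and 5 did not pass, so 37.5% were called against 22.2% of all genes, a difference that rests on few genes. MEIS1 went from 8.46 ± 0.02 to 8.77 ± 0.05 (0.31, adjusted p = 0.0086) and MEIS2 from 8.92 ± 0.03 to 9.12 ± 0.02 (0.20, adjusted p = 0.028), both partners that bind beside HOX and PBX. PBX3, a partner that binds in dimers with HOX proteins, fell from 9.99 ± 0.06 to 9.73 ± 0.02 (−0.26, adjusted p = 0.018). The groups did not overlap in any of the 3, and the median change of the list was −0.02. The MEIS2 call ended whichever array was left out (adjusted p = 0.061 to 0.092) and with median centring (0.056), and the PBX3 call without parental replicate 2 (0.067), TRIM71 replicate 1 (0.062), TRIM71 replicate 2 (0.055) or TRIM71 replicate 3 (0.058).

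Of 38 Polycomb and Trithorax genes, 9 rose, 6 fell and 23 did not pass, with a median change of 0.08 against −0.01 for all genes. JARID2, an accessory subunit of the Polycomb complex PRC2, read 10.00, 9.97 and 9.98 against 10.49, 10.55 and 10.56 (0.55, adjusted p = 9.7e-04). The PRC2 core subunit SUZ12 fell by 0.35 on the log2 scale (11.49 ± 0.05 to 11.14 ± 0.01, adjusted p = 0.0055). The PRC1 ubiquitin ligase RING1 fell by 0.52 (adjusted p = 0.0047), its other, dim probeset did not pass (−0.61, adjusted p = 0.17), and CBX6, a chromodomain subunit of PRC1, fell by 0.50 (adjusted p = 0.0079). PCGF6 and PHC3 are named here because the counts depend on the probeset used. The brightest probeset of PCGF6 did not pass (−0.24, adjusted p = 0.061) and its other one fell (−0.26, adjusted p = 0.015). For PHC3 the directions differed. Its brightest probeset was higher in the TRIM71 line without passing (0.17, adjusted p = 0.054), and its other one, dim at 5.51 in the parental line, fell (−0.43, adjusted p = 0.0070). KDM6A, which removes the Polycomb mark, rose by 0.32 (adjusted p = 0.0069) and KMT2C, a methyltransferase of the Trithorax group, by 0.27 (adjusted p = 0.010). Of all genes 22.2% were called, against 39.5% here, as a description of a list chosen with earlier results of these arrays known. All 38 lay above the olfactory receptor level and 37 above the median of all probesets. The share of all genes includes dim ones, so it is no background matched for level.

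Of 19 retinoic acid and CDX genes, 3 rose, 7 fell and 9 did not pass, with a median change of −0.13. This is 52.6% called against 22.2% of all genes, again for a list chosen with earlier results of these arrays known. Among the falls, ALDH1A3 is named here for its 2 probesets. The brighter fell by 0.40 (adjusted p = 0.047) and the other differed by 0.02 (adjusted p = 0.94). The receptors RARB and RARG fell, RARB from 8.11 ± 0.07 to 7.60 ± 0.08 (−0.51, adjusted p = 0.0041) and RARG by 0.41 on the log2 scale (adjusted p = 0.0076). All 3 probesets of their partner RXRB fell, the brightest by 0.33 (adjusted p = 0.0099). RDH10, which makes the precursor retinal, read 10.01, 9.97 and 9.97 against 9.52, 9.56 and 9.52 (−0.45, adjusted p = 0.0017), and ALDH1A1, which turns retinal into retinoic acid, fell from a dim 6.33 to 5.74 (−0.59, adjusted p = 0.012, and 0.051 without TRIM71 replicate 1). ALDH1A2, a bright member of the same family, and the receptor RXRA are named here because they did not pass. ALDH1A2 stood at 9.69 ± 0.02 against 9.69 ± 0.01 (−0.01, adjusted p = 0.92), and RXRA differed by 0.02 (adjusted p = 0.84). CRABP2, a retinoic acid carrier, rose by 0.43 (adjusted p = 0.0085). CYP26B1, which degrades retinoic acid and is named here after its values were seen, read 6.27, 6.32 and 5.85 against 6.90, 6.98 and 6.78 (0.74, adjusted p = 0.014). The CDX genes, upstream activators of central HOX genes, did not pass.

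**Figure D4:**
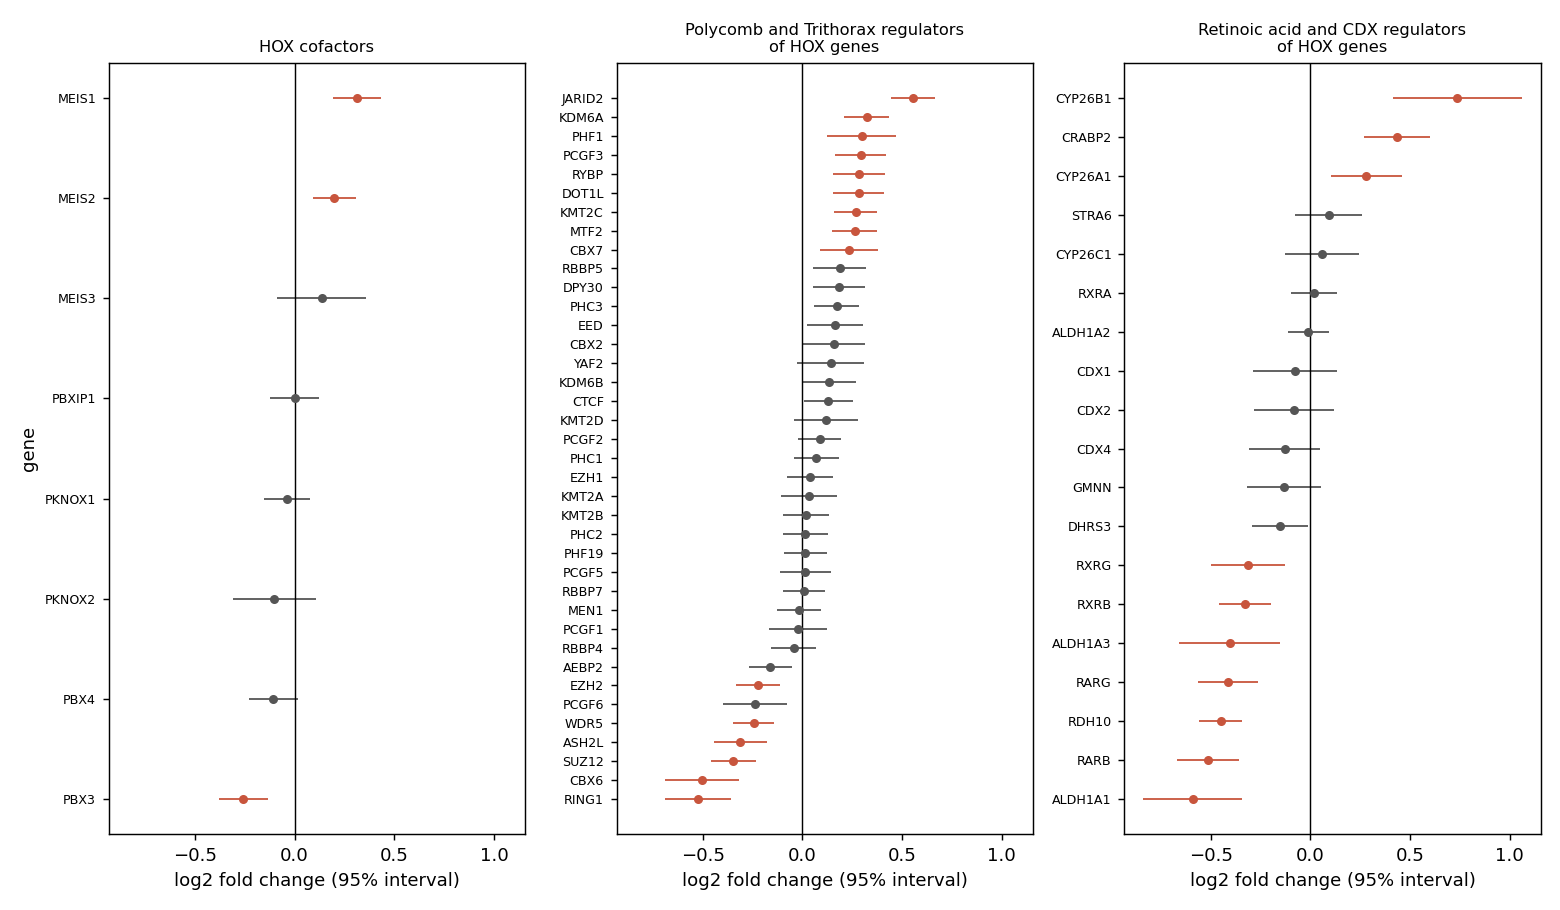
Log2 fold change (x axis, with 95% intervals) of the measured genes (y axis) of 3 lists: HOX cofactors, Polycomb and Trithorax genes, and retinoic acid and CDX genes. Red points passed the test. In the first list 2 rose and 1 fell, in the second 9 rose and 6 fell, and in the third 3 rose and 7 fell.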

How the data were processed

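The authors deposited 1 table of log2 expression values, 1 column per array, for which the submitters' processing notes list RMA and affy. Their versions and the build behind the annotation are not given in the sources used here. RMA equalises the probe distributions of arrays, so a change in total mRNA per cell cannot be seen. Array medians lay between 6.90 and 6.97, and the number of arrays limits the precision. Arrays of 1 group correlated at r = 0.996 to 0.997 and arrays of different groups at 0.991 to 0.994.

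Groups and replicate numbers came from the sample titles. Symbols came from the array's annotation table, which gave 19158 probesets 1 symbol, 1388 several and 11775 none. HOX members were any probeset with a matching symbol. For counts by gene, only 1-symbol probesets were used, each gene by its probeset with the highest mean. RefSeq of GRCh38.p14 gave chromosomes and gene order. All 32321 probesets were fitted with limma 3.58.1 in R 4.3.3 (lmFit, eBayes, no filter on dim probesets), and every adjusted p comes from this fit or a stated alternative. The procedure was tested on simulated data.

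The members and lists were chosen with earlier results of these data known. By rule, all HOX members, cluster RNAs, listed neighbours and TRIM71 could be named and, of each other list, at most 6 called genes by smallest adjusted p; exceptions are marked. All 8 called genes on the list of cluster neighbours are named, and the uncalled ones named are a selection. Called genes around the clusters that are not on that list enter the counts but are not named in the text. As alternatives, the fit was repeated with an intensity trend (plain or robust), median centring, quantile normalization, 2 filters on dim probesets, 1 probeset or the mean of probesets per gene, a replicate block, array weights, limma's treat at 1.2-fold, a threshold of 0.01, and each array left out. Promoter and microRNA sequences are from RefSeq.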

Additional observations from a re-analysis of the deposited data

How the results depend on the processing

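HOXA2 (0.97 to 1.02) and HOXD13 (−0.59 to −0.56) kept direction and call under all 17 alternatives run for each. The HOXC13 call also ended with the replicate block (adjusted p = 0.086), at an adjusted p under 0.01 and against a fold of 1.2. The 3 HOX calls became 5, with HOXD9 and HOXC10 added, under 1 probeset per gene, either filter on dim probesets, and, by gene, the mean of probesets; fewer features are tested there. Without 1 array they were 2 or 3. The median HOX change ran from −0.02 to 0.02. Of the 25 uncalled members, 18 kept their sign throughout. Signs turned with array weights for HOXB1 (−0.0030), HOXB3 (−0.0032), HOXD10 (−0.0034), ATP5MC3 (−0.0083) and NFE2L3 (0.012), and with quantile normalization for LNPK (−0.016). Without 1 array, values crossed 0 for HOXB1 (−0.035 to 0.10), HOXB3 (−0.025 to 0.042), HOXB8 (−0.090 to 0.021), HOXB9 (−0.035 to 0.00042), HOXD1 (−0.017 to 0.12), HOXD10 (−0.030 to 0.045), HOXD11 (−0.041 to 0.016), HOXA-AS2 (−0.10 to 0.041), ATF7 (−0.024 to 0.0095), ATP5MC3 (−0.014 to 0.073), LNPK (−0.016 to 0.028), NFE2 (−0.071 to 0.13) and NFE2L3 (−0.067 to 0.036).

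Replicate numbers gave no clear sign of pairing. Deviations of same-numbered arrays from their group means correlated at 0.07, −0.19 and 0.11, and parental replicate 1 correlated best with TRIM71 replicate 2. With means of only 3 arrays, these values cannot exclude that the samples were paired. For all probesets called, the count went from 5248 to 3127 with the replicate block, 2246 at an adjusted p under 0.01, 821 against a fold of 1.2, and 2917 to 4092 without 1 array (2917 without parental replicate 2, 3018 without TRIM71 replicate 1, 3141 without TRIM71 replicate 2). With the block, calls were 1 cofactor, 6 Polycomb and Trithorax genes, 6 retinoic acid genes, 0 cluster RNAs and 4 neighbours, from 3, 15, 10, 1 and 8. At an adjusted p under 0.01 they were 1, 5, 5, 0 and 4, and against a fold of 1.2 they were 0, 1, 0, 0 and 1. Neighbours were 5 with median centring. Without 1 array the ranges were 1 to 2, 7 to 12, 6 to 7, 0 to 1 and 4 to 6. The causes were not tested.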
